A study of Caenorhabditis elegans with 2 samples.

Results

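The collagen genes of the worm cuticle were taken as the protein-coding genes of the Ensembl WBcel235 annotation of Caenorhabditis elegans whose name starts with col-. The rule gave 156 genes out of 19973 nuclear protein-coding genes, and it used no measured value. Another 20 cuticle collagens carry names from their mutant shapes (bli, dpy, rol, sqt and related names) and are described apart. The set also holds col-99, which encodes a transmembrane collagen and not a cuticle collagen.

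Binding of JUN-1 was mapped in whole L1 larvae, the first larval stage, by chromatin immunoprecipitation and sequencing (ChIP-seq). All animals were of strain OP234, which carries the unc-119(ed3) mutation on chromosome III and the transgene wgIs234 with an eGFP-tagged jun-1. They were not separated by sex. There were 2 biological replicates of this 1 strain and 1 group, with no untagged or mutant group beside it, so genes were compared with each other and not conditions. In whole larvae, binding in the epidermis, which makes the cuticle, could not be told apart from binding in other tissues.

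The cuticle is an extracellular layer secreted by the epidermis and built mainly from small collagens that are cross-linked to each other. It is replaced at every larval molt, and collagen genes are switched on in waves within each molting cycle. JUN-1 is the worm homolog of Jun, a basic leucine zipper protein that binds DNA as a dimer, and Jun dimers of the AP-1 type bind the letters TGACTCA in animals.

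The deposited peak lists give, for each peak, a summit (the base of highest enrichment) and the authors' own signal value, which has no stated scale and was compared only within a list. The list thresholded on the irreproducible discovery rate (IDR, a measure of how alike peaks rank in replicates) is the one deposited as optimal. It held 2305 peaks with signals of 28.4 to 569. How the replicates were compared to set its cutoff is not stated, and a peak in it need not rank alike in both. The list of both replicates pooled held 19646 peaks, weak ones included, and those of replicate 1 and replicate 2 held 28101 and 30000. The pooled list is labelled as peaks and background used as input for IDR. The lowest −log10 q-value was 0.0178 in the pooled list, 0.0177 in replicate 1 and 0.0203 in replicate 2. A summit in the pooled or a replicate list therefore need not mark a site of JUN-1 binding. The number of reads behind each list is unknown. A promoter summit means a summit between 1000 bp upstream and 200 bp downstream of the annotated gene start.

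Few collagen promoters held an IDR-thresholded JUN-1 peak, at 3.21% of the collagen genes against 8.42% of all protein-coding genes. In collagen promoters and gene bodies, 4 IDR-thresholded summits, 1 of 5 and 3 of 3, were at transfer RNA (tRNA) genes. Over the whole list, 4.51% of summits were within 100 bp of a tRNA gene. These 4 sequences are shown because the same feature recurred among the collagen loci. Each is the 201 bp around the summit on ce11 (RefSeq WBcel235), on the strand of the tRNA gene, with the letters of the tRNA gene in capitals.
col-185 promoter, X:13511926-13512126, minus strand: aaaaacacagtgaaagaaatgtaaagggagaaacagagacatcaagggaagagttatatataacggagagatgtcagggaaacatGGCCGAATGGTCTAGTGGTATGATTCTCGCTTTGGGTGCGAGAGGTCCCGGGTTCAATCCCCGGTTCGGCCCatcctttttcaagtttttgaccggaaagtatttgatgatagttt
col-72 intron, II:3521461-3521661, minus strand: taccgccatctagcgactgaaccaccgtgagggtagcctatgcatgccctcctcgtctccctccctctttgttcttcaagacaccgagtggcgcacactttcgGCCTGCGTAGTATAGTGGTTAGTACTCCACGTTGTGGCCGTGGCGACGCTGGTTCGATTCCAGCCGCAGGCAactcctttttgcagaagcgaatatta
col-85 intron, II:12494615-12494815, plus strand: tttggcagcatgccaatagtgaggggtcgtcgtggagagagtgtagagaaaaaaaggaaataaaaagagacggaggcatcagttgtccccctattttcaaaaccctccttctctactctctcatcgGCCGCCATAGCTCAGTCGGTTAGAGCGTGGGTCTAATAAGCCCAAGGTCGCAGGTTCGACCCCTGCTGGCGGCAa
col-99 intron, IV:143899-144099, plus strand: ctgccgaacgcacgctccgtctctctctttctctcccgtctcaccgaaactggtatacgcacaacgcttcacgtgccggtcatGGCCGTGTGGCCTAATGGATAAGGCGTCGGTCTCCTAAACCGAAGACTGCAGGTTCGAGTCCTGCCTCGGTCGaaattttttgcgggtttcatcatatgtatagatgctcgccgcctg
The first lay upstream of col-185 and the other 3 lay in introns of col-72, col-85 and col-99.

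For comparison, these are the 101 bp around the summits of 5 collagen promoters on the strand of the collagen gene. The capitals in col-103 mark GAGACGCAG, the reverse complement of CTGCGTCTC, which was the only motif of the panel described further on that these stretches held.
col-38 promoter, II:8569473-8569573, minus strand: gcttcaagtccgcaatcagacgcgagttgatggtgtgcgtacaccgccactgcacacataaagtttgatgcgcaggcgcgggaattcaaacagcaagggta
col-71 promoter, II:3502786-3502886, minus strand: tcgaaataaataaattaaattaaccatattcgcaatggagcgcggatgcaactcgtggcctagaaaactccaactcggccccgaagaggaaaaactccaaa
col-8 promoter, III:7021387-7021487, minus strand: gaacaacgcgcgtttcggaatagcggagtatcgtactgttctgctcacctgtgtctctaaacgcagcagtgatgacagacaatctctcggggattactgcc
col-10 promoter, V:9165351-9165451, minus strand: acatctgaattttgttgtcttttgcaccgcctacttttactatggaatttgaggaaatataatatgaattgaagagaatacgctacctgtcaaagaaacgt
col-103 promoter, IV:763773-763873, minus strand: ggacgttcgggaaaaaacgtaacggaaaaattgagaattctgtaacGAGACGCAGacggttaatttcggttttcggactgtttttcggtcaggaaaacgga

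Of the 156 collagen genes, 5 had a promoter summit in the IDR-thresholded list, which is 3.21% (95% Wilson interval 1.38% to 7.28%), against 1681 of all protein-coding genes, or 8.42%. The 5 were col-38, col-71, col-185, col-63 and col-8, cuticle collagen genes for which no further role is given here. Wilson intervals cover counting error only, and neighbouring collagen genes are not independent of each other.

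The strongest peak lay upstream of col-38 (WBGene00000615; II:8568035-8569088, minus strand). Its peak, II:8569351-8569694, had a signal of 79.0 in the pooled data, 48.2 in replicate 1 and 30.1 in replicate 2, and ranked 441 of 2305. The summit was 435 bp from the col-38 start and 404 bp from the start of the divergent gene rpl-5, which encodes a protein of the large ribosomal subunit. It stood about midway in the 838 bp between the genes, inside the annotated non-coding RNAs F54C9.16 and F54C9.17.

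The peak at col-71 (WBGene00000647; II:3500077-3502570, minus strand) lay at II:3502664-3503007, 266 bp upstream of the start. Its signal was 36.8 in the pooled data, 24.5 in replicate 1 and 13.1 in replicate 2. This summit too was in a divergent promoter: the start of Y49F6B.2 was 132 bp away, nearer than that of col-71, with 397 bp between the genes.

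The peak at col-185 (WBGene00000758; X:13510035-13511097, minus strand) lay at X:13511854-13512197, 929 bp upstream. Its signal was 33.9 in the pooled data, 12.3 in replicate 1 and 22.0 in replicate 2, and it ranked 3798 and 964 in the replicate lists. No protein-coding start was nearer than that of col-185, but the summit fell inside the tRNA gene at X:13511970-13512041, whose sequence is shown above.

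The peak at col-63 (WBGene00000639; I:8243694-8244963, minus strand) lay at I:8245499-8245842, 708 bp upstream. Signals were 32.9 in the pooled data, 16.0 in replicate 1 and 14.6 in replicate 2, at ranks 2513 and 1848 of the replicate lists. The col-63 start was the nearest, yet the summit lay in an exon of ceh-8, a homeobox gene on the same strand. At col-8 (WBGene00000597; III:7019583-7020600, minus strand) the peak at III:7021265-7021608 had a signal of 32.9 in the pooled data, 24.9 in replicate 1 and 6.42 in replicate 2. The strongest replicate 2 peak that overlapped it had its summit 164 bp away and ranked 8530, while the replicate 1 peak ranked 1286. The summit lay in an exon of rfl-1, which encodes a subunit of the enzyme that activates the ubiquitin-like protein NEDD8, 231 bp from the rfl-1 start and 837 bp from that of col-8.

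All 5 summits were therefore either inside another annotated gene, closer to another start, or both. Only 2 of the collagen genes, col-63 and col-185, were the nearest protein-coding start to their IDR-thresholded promoter summit. That is 1.28% of the 156 (interval 0.352% to 4.55%), against 6.24% of all protein-coding genes. Without replicate 2, over the 2305 strongest peaks of replicate 1, it was 1, against 6.26%. Their signals were also low for the list: the median over the 5 was 33.9, against 47.9 over all genes with such a summit, and 1 of the 5, col-38, was above that median.

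**Figure D1:**
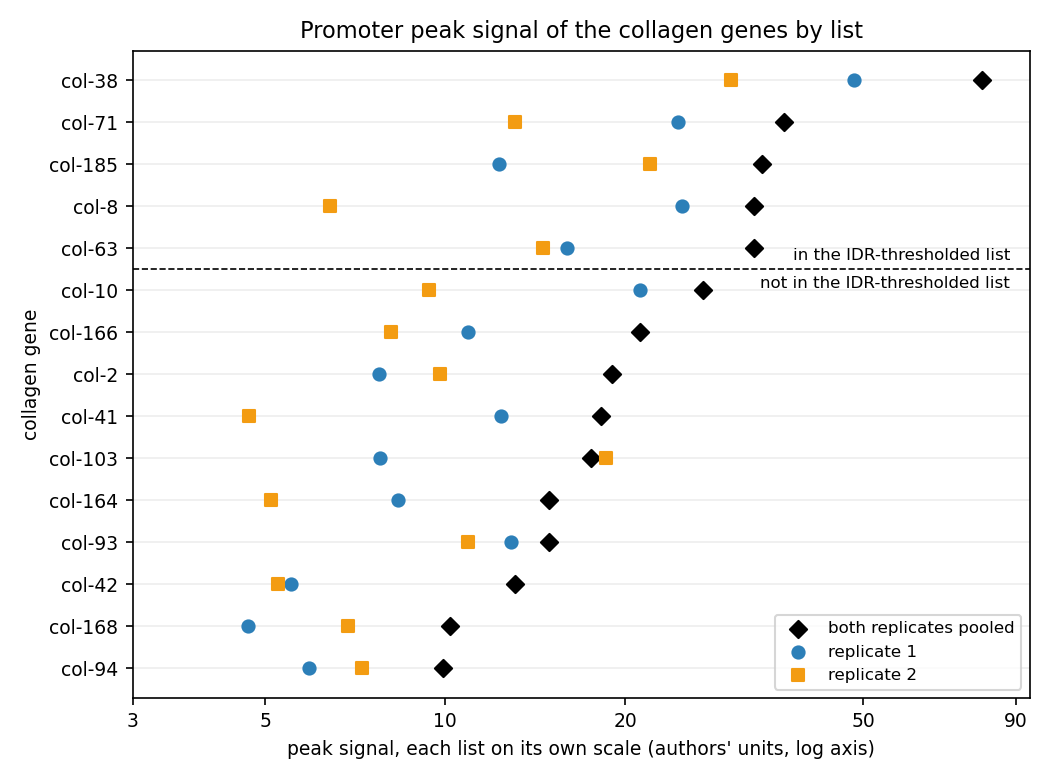
Peak signal (horizontal, log axis, the authors' units, each list on its own scale) at the promoters of 15 collagen genes (vertical), with diamonds for the pooled list, circles for replicate 1 and squares for replicate 2. The 5 genes above the dashed line are in the IDR-thresholded list, with col-38 at 79.0 and the others between 32.9 and 36.8; the 10 below are the strongest of the rest that also have a summit in both replicate lists, led by col-10 at 27.0.

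The plot of promoter signals by gene shows col-38 apart from the other collagen genes in the pooled data and in each replicate. Ranking each replicate list alone gave a similar picture. Among the 2305 strongest peaks of replicate 1 were promoter summits of 4 collagen genes (col-38, col-71, col-8 and col-10), or 2.56%, against 8.56% of all genes. Among those of replicate 2 were promoter summits of 5 (col-38, col-71, col-185, col-63 and col-103), or 3.21%, against 7.98% of all genes. Only col-38 and col-71 were in both sets.

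In the lists that reach below the IDR threshold, where a summit need not mark binding, the collagen genes came closer to the other genes. In the pooled list 39 of 156 (25%, interval 18.9% to 32.3%) had a promoter summit, against 33.7% of all protein-coding genes. In replicate 1 it was 52 (33.3%) against 40.7%, and in replicate 2 it was 57 (36.5%) against 41.1%. A promoter summit in both replicate lists was found for 26 collagen genes (16.7%), against 26.6% of all, and one in the pooled and both replicate lists for 19 (12.2%), against 24.0% of all. No promoter summit in any of the 4 lists was found for 71 collagen genes (45.5%), against 44.2% of all genes, so the share without any peak was close to the background.

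The counts were then taken at higher signals. A pooled promoter summit with a signal of at least 10 was found for 22 collagen genes (14.1%), against 26.4% of all genes. At a signal of at least 15 there were 11 (7.05%) against 17.1%, and at 20 there were 7 (4.49%) against 12.5%. At a signal of at least 30, 5 collagen genes remained (3.21%), against 7.84% of all. These were the 5 of the IDR-thresholded list, at the same signals and ranks, and that list starts at a signal of 28.4. The count at 30 therefore repeats the IDR-thresholded count and is not a further result. As a ratio to the share of all genes, the collagen share was 0.534 at a signal of 10, 0.358 at 20 and 0.409 at 30, against 0.741 over the whole pooled list. Among genes with a pooled promoter summit, the strongest one had a median signal of 10.2 over the collagen genes (range 7.98 to 79.0), against 15.2 over all genes, and 11 of the 39 collagen genes (28.2%) were above the median of all. The medians were 6.21 against 7.74 in replicate 1 and 4.95 against 6.13 in replicate 2.

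**Figure D2:**
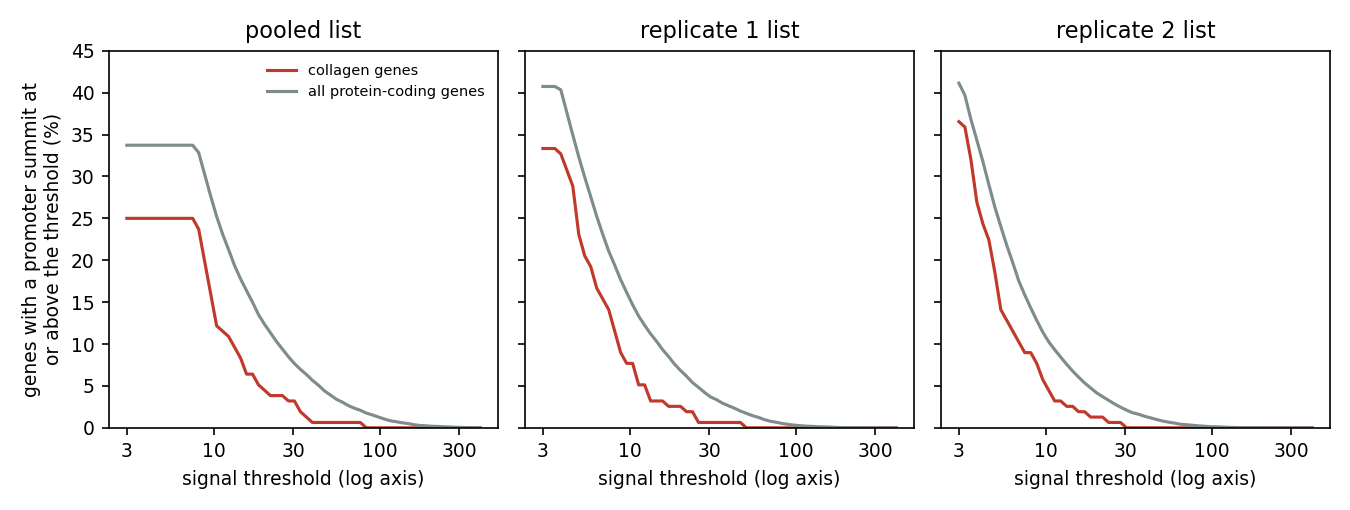
Share of genes (vertical, percent) with a promoter summit at or above a signal threshold (horizontal, log axis, the authors' units) for the collagen genes and for all protein-coding genes, in the pooled list and in each replicate list. The curve of the collagen genes lies below that of all genes in each list, starting at 25% against 33.7% in the pooled list; the curves are flat to the left of the weakest peak of a list.

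Promoter summits in both replicates were counted next, by gene. A replicate summit anywhere in the promoter window counted, whether or not it lay at the pooled summit. Of the 39 collagen genes with a pooled promoter summit, 19 (48.7%) also had one in both replicate lists, against 4797 of 6736 genes (71.2%). Another 18 (46.2%, against 27.1% of all) had one in 1 replicate list and 2 (5.13%, against 1.68% of all) in neither. The pooled signals of the collagen genes were lower as well, as given above, and the part of the signal in these shares was not tested.

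The weaker peaks included textbook cuticle collagens. The promoter of col-10 (V:9164292-9165307, minus strand) held a pooled peak at V:9165229-9165572, 94 bp upstream of the start. Its signal was 27.0 in the pooled data, 21.2 in replicate 1 and 9.40 in replicate 2, just under the weakest IDR-thresholded peak at 28.4. Its sequence is among the 5 shown above. For col-2 the pooled signal was 19, with 7.75 in replicate 1 and 9.81 in replicate 2, at a summit 434 bp upstream that was nearer to the start of ndc-80 (252 bp), a gene of the kinetochore complex. For col-12, with a summit 159 bp upstream, the pooled signal was 10 and the replicate 1 signal 8.84, and no replicate 2 peak overlapped it. The adult-stage marker col-19 had no promoter summit in any list, nor had col-99.

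Some of these peaks ranked far apart in the replicate lists. At col-103 the pooled signal was 17.5, with 7.78 in replicate 1 (rank 8335) and 18.6 in replicate 2 (rank 1256). The replicate 1 summit was 322 bp away from the pooled one, so the 2 replicates did not mark the same bases there. At col-41 it was the reverse, with 18.2 in the pooled data, 12.4 in replicate 1 (rank 3725) and 4.70 in replicate 2 (rank 15906), and the summit lay in an intron of ucr-2.2, a subunit gene of the mitochondrial respiratory chain. For col-166, 167 bp upstream of the start, the ranks were closer: the signal was 21.2 pooled, 10.9 in replicate 1 (rank 4553) and 8.13 in replicate 2 (rank 5284).

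The remaining named promoters had pooled signals from 14.9 down to 9.91. Signals of 14.9 were found at col-164, 101 bp upstream of the start, and at col-93, whose summit 590 bp upstream lay in an intron of the dynein heavy chain gene dhc-4. They were 13.1 at col-42, 10.2 at col-168 and 9.91 at col-94, where the summit was 118 bp downstream of the start. The pooled −log10 q-values were low, at 0.743 for col-164, 0.742 for col-93, 0.464 for col-42, 0.154 for col-168 and 0.133 for col-94. At each of these 5 genes a peak of both replicate lists overlapped the pooled peak, with signals of 4.67 to 12.9 in replicate 1 and 5.11 to 10.9 in replicate 2. Replicate summits were 7 bp (col-164) to 278 bp (col-168) from the pooled one in replicate 1. In replicate 2 they were 9 bp (col-164) to 159 bp (col-93) from it, so overlap did not always mean the same bases.

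Strong peaks also lay near collagen genes, outside the promoter windows. An IDR-thresholded summit lay within 5000 bp of the start of 37 collagen genes (23.7%), against 22.3% of all genes, and within 10000 bp of 59 (37.8%), against 35.8% of all. These shares were near the background, unlike the promoter share. The nearest IDR-thresholded summit was a median of 15160 bp from a collagen start, against 16698 bp over all genes.

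Just outside the window, the nearest case was col-145, with a summit 1102 bp upstream, 102 bp beyond the limit. That peak, V:9163935-9164278, had a signal of 40.8 in the pooled data, 32.2 in replicate 1 and 9.13 in replicate 2, and it lay between the tandem genes col-10 and col-145. A summit 1585 bp upstream of col-168 (X:6324631-6324974) had signals of 37.5 pooled, 34.3 in replicate 1 and 10.2 in replicate 2, and was nearer to the start of col-167 (1315 bp). Of the summits within 1000 bp beyond a promoter window, the strongest was 1763 bp upstream of col-94, at III:10989464-10989807, with a signal of 179 in the pooled data, 104 in replicate 1 and 72.4 in replicate 2. It ranked 62 of 2305, lay in an intron of dhc-4, and its summit was 43 bp from a small nuclear RNA gene at III:10989679-10989780.

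Inside the collagen genes, the share with an IDR-thresholded summit was near that of all genes, and the pooled share was below it. An IDR-thresholded summit in the gene body, outside the promoter window, was found for 3 collagen genes (1.92%), against 2.23% of all genes. For pooled summits there were 18 (11.5%, interval 7.42% to 17.5%) against 25.9% of all, beside a shorter median gene length of 1220 bp, against 2027 bp over all genes. The part of gene length in this was not tested.

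All 3 of the gene-body summits were intronic and within 100 bp of a tRNA gene. Over the whole list, 42 of the 478 IDR-thresholded summits (8.79%) in genes and outside every promoter window were that near one. The col-72 summit is not among the 478. It lay 2636 bp downstream of the col-72 start, in the promoter window of W09G10.9, an opposite-strand gene 612 to 2397 bp from that start. At col-72 the peak II:3521389-3521732 had signals of 36.1 pooled, 19.3 in replicate 1 and 17.4 in replicate 2, and its summit was 3 bp from the tRNA gene at II:3521487-3521558. At col-85 the peak II:12494543-12494886 had signals of 38.8 pooled, 29.7 in replicate 1 and 6.40 in replicate 2, with the tRNA gene II:12494741-12494814 at 26 bp. The peak in col-99, IV:143827-144170, had signals of 43.0 pooled, 21.8 in replicate 1 and 19.5 in replicate 2, and its summit fell inside the tRNA gene IV:143982-144054. These are the capitals of the sequences shown first.

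In all, 5 annotated tRNA genes lay in the bodies or promoter windows of collagen genes, and an IDR-thresholded summit was within 100 bp of 4 of them, against 18.3% of the 612 tRNA genes. A pooled summit was within 100 bp of all 5, against 48.9% of tRNA genes, with the fifth in col-54 at a distance of 37 bp. Over the IDR-thresholded list, 104 of 2305 summits (4.51%) were within 100 bp of a tRNA gene, and 20 of 1278 promoter summits (1.56%). Part of these sequences recurs in the genome: the share of 32-base words found once was 70.0% around the col-185 summit, 64.7% at col-72, 72.4% at col-85 and 72.9% at col-99, against 100% at the other 4 promoter summits of the IDR-thresholded list. It was 81.2% around the strong summit 1763 bp upstream of col-94, and 100% around those just outside the windows of col-145 and col-168. How reads of repeated sequence were placed is not given in the sources used here, and its part in these signals was not tested.

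**Figure D3:**
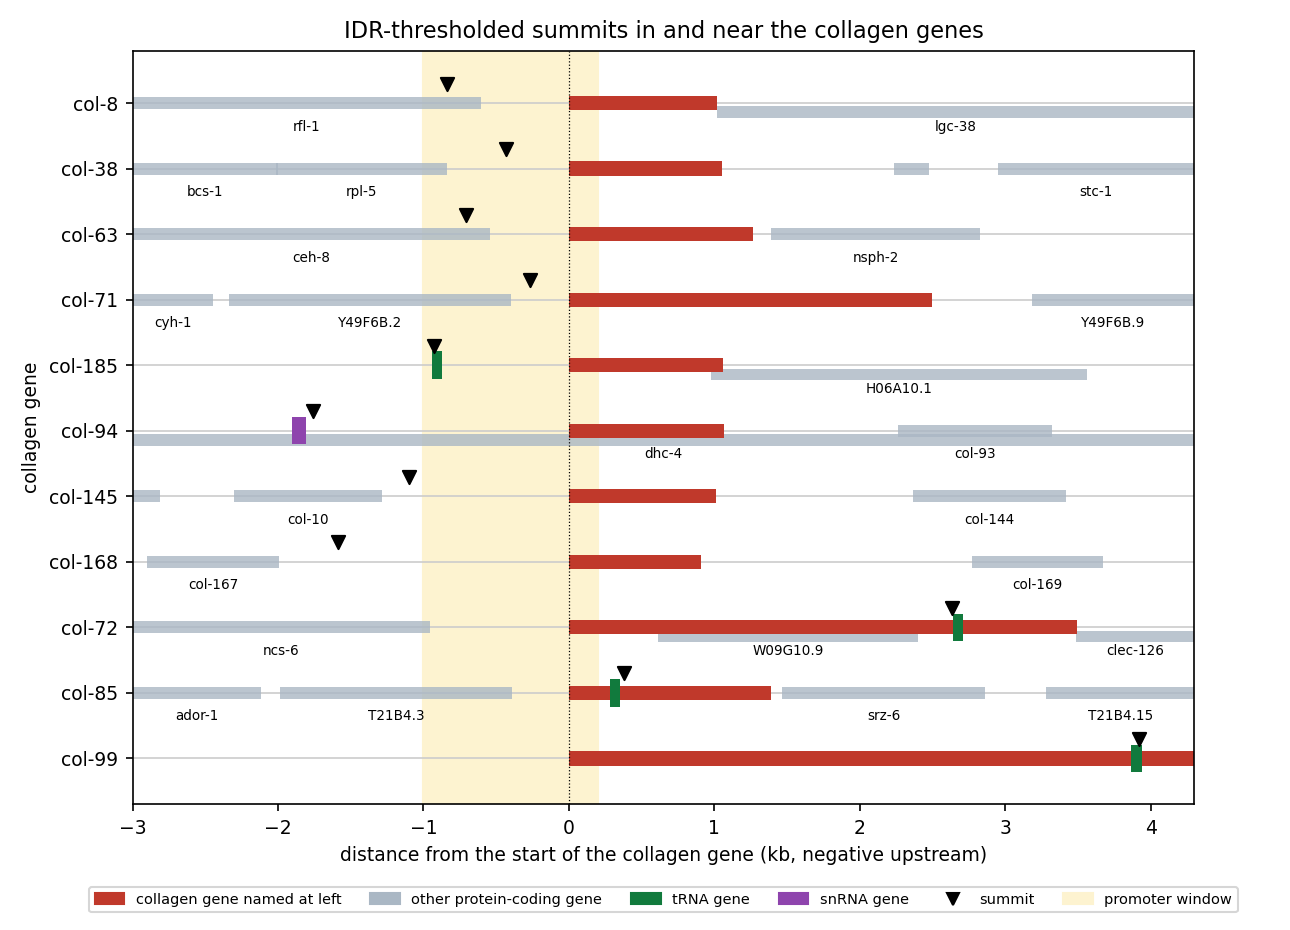
Map of the IDR-thresholded summits (triangles) in and near 11 collagen genes, drawn by distance from the start of the collagen gene in kb (horizontal, negative upstream), with collagen genes in red, other protein-coding genes in grey, tRNA genes in green and a small nuclear RNA gene in purple. Summits of col-185, col-72, col-85 and col-99 sit at tRNA genes, and those of col-8 and col-63 inside rfl-1 and ceh-8.

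Just upstream of the gene start, the collagen genes were below all genes. In the 200 bp just upstream of the start, a pooled summit was found for 8 collagen genes (5.13%), against 11.6% of all genes, and an IDR-thresholded one for 0, against 3.22% of all. From 400 to 200 bp upstream the pooled share was 4.49%, against 8.81%. On either side the shares were close, at 5.13% against 4.92% from 600 to 400 bp upstream and 5.13% against 4.45% in the first 200 bp downstream. Of the 40 pooled promoter summits of collagen genes, 19 (47.5%) lay 0 to 500 bp upstream, against 60.8% of the 7595 of all genes. Another 13 (32.5%, against 27.4% of all) lay farther upstream and 8 (20%, against 11.7% of all) downstream. The median position was alike, 254 bp upstream against 258 bp over all genes. For the pooled list, 34 collagen genes (21.8%) were the nearest protein-coding start to a promoter summit, against 28.0% of all genes.

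**Figure D4:**
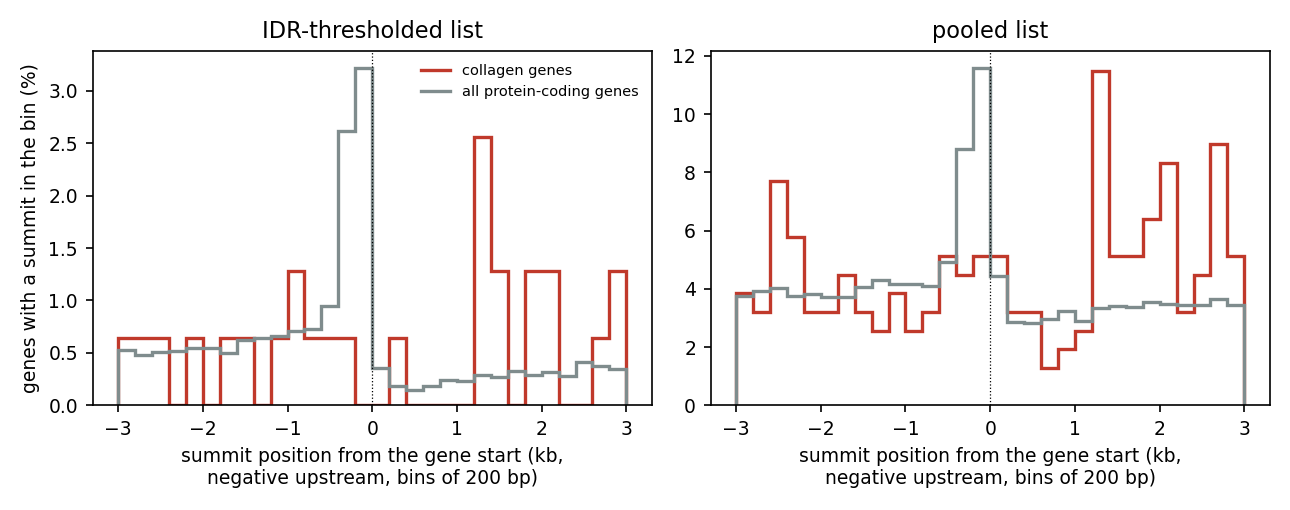
Share of genes (vertical, percent) with a summit in each 200 bp bin around the annotated gene start (horizontal, kb, negative upstream) for the collagen genes and for all protein-coding genes, in the IDR-thresholded and the pooled list. All genes crest just upstream of the start, at 3.22% and 11.6%, where the collagen genes stand at 0% and 5.13%; the collagen genes are highest 1.2 to 1.4 kb downstream of the start, at 2.56% and 11.5%.

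The collagen share was highest 1200 to 1400 bp downstream of the start, about a gene length away. Bins of the pooled list varied widely for the collagen genes, some above all genes and some below. The share was 8.97% against 3.64% from 2600 to 2800 bp downstream and 7.69% against 4.02% from 2600 to 2400 bp upstream. From 600 to 800 bp downstream it was 1.28% against 2.96%. Because collagen genes are short and alike in length, the summits were counted again from the annotated gene end, a question and a distance of 300 bp chosen after the profile around the start had been seen. An IDR-thresholded summit lay 1 to 300 bp beyond the end of 7 collagen genes (4.49%, interval 2.19% to 8.97%), against 1.33% of all genes. Without replicate 1, that is, over the 2305 strongest peaks of replicate 2, it was 4, against 1.24%, and without replicate 2 it was 8, against 1.40%. Over the stronger 50% of the IDR-thresholded list it was 3, against 0.696%. In the pooled list it was 29 (18.6%, interval 13.3% to 25.4%) against 10.6%. The replicate lists gave 28 (17.9%) against 13.8% in replicate 1 and 37 (23.7%) against 13.1% in replicate 2, and 15 collagen genes (9.62%) had such a summit in both, against 5.22% of all. None of the 7 was among the 5 genes with an IDR-thresholded promoter summit.

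The strongest of the 7 were at col-128 and col-181. Beyond the end of col-128 (IV:11550002-11551960, minus strand) the peak IV:11549741-11550084 had signals of 68.6 pooled, 39.5 in replicate 1 and 28.4 in replicate 2, with the summit 89 bp past the end and 49 bp from a small nucleolar RNA gene. Beyond that of col-181 (X:12104930-12106102, plus strand) the peak X:12106073-12106416 had 66.6 pooled, 35.6 in replicate 1 and 31.4 in replicate 2, 143 bp past the end and 26 bp from a tRNA gene. Both replicates placed these peaks high, at ranks 513 to 689.

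The third, beyond col-153, was also a promoter peak of another gene: its signals were 53.6 pooled, 26.5 in replicate 1 and 27.8 in replicate 2, and the start of F17C11.4 was 54 bp away. The remaining 4 were at col-10, col-17, col-147 and col-3, with pooled signals of 40.8, 40, 38.2 and 32.9. The peak beyond col-10 is the one described above as lying upstream of col-145. Their summits were 129 to 269 bp past the end, 12055 bp or more from any tRNA, small nucleolar or small nuclear RNA gene, and in no promoter window of a protein-coding gene, although that of col-147 lay inside the gene T06E4.5. Replicate signals there were 21.5 to 32.2 in replicate 1 and 9.13 to 16.2 in replicate 2. The 101 bp around a pair of these summits are given on the strand of the collagen gene, with no capitals because no motif of the panel was found in them.
col-17 beyond the end, II:4866257-4866357, minus strand: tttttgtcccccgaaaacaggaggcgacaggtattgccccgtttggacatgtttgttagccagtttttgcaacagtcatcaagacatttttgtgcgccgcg
col-3 beyond the end, IV:8826232-8826332, plus strand: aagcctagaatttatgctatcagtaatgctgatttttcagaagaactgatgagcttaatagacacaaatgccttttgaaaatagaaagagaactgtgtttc

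The counts beyond the gene end were repeated by gene length and for free ends. Among genes of 1000 bp to under 2000 bp, 6 of 111 collagen genes (5.41%) had an IDR-thresholded summit there, against 1.48% of all genes of that length, and 21 (18.9%) a pooled one, against 9.43%. Of 22 shorter collagen genes, 0 had an IDR-thresholded summit there (1.01% of all genes that short) and 4 (18.2%) a pooled one, against 8.46%. Of 23 longer ones, 1 (4.35%) had an IDR-thresholded one, against 1.34%, and 4 (17.4%) a pooled one, against 12.2%. In replicate 1 the collagen share was above that of all genes in the middle class alone, at 20.7% against 12.5%, while it was 9.09% against 10.4% in the shorter and 13% against 15.8% in the longer genes. In replicate 2 it was above in each class. Where no protein-coding gene lay in the 300 bp beyond the end, it was 5 of 86 (5.81%) against 1.63%, and for pooled summits 17 (19.8%) against 9.94%. In 8 of the 29 collagen genes with a pooled summit beyond the end, a summit there was also in the promoter window of a gene, as it was for 924 of 2127 over all genes. Signals of these pooled summits were alike, with a median of 12.1 over collagen genes and 12.4 over all genes.

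**Figure D5:**
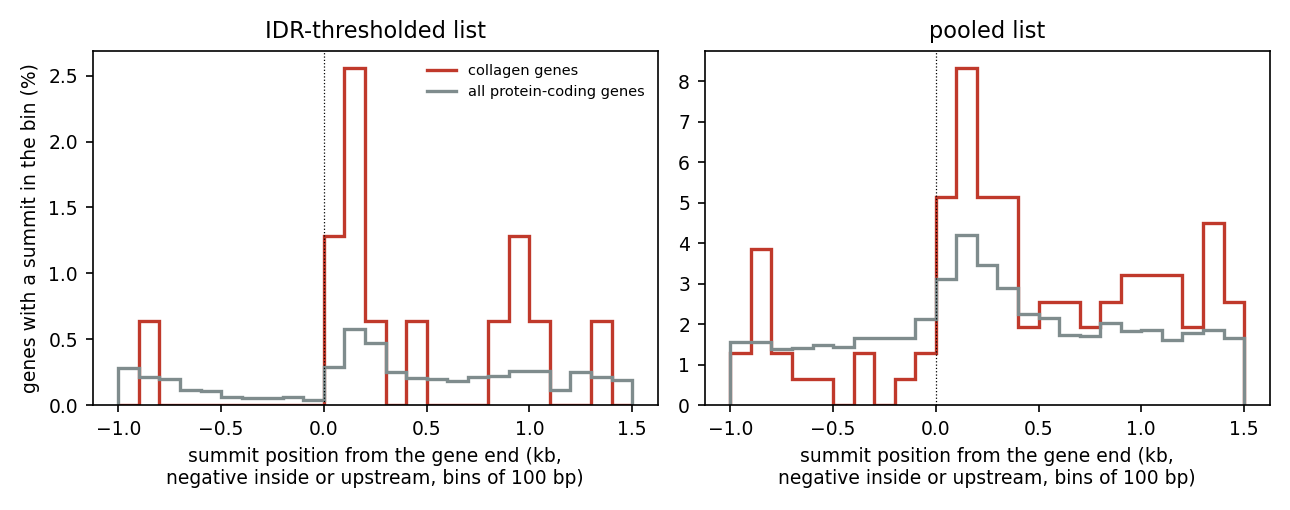
Share of genes (vertical, percent) with a summit in each 100 bp bin around the annotated gene end (horizontal, kb, negative inside or upstream of the end) for the collagen genes and for all protein-coding genes, in the IDR-thresholded and the pooled list. Both sets are highest 0.1 to 0.2 kb past the end, where the collagen genes reach 2.56% and 8.33%, against 0.581% and 4.21% of all genes.

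Position and neighbourhood were set beside the promoter counts. There was a median of 856 bp between a collagen gene and the next gene upstream, against 937 bp over all genes. A gene that overlapped the start, such as dhc-4 at col-94, counted as the next gene at a distance of 0 bp. Where that distance was under 500 bp, 13 of 57 collagen genes (22.8%) had a pooled promoter summit, against 36% of all such genes, and where it was 5000 bp or more, 4 of 12 (33.3%) did, against 29.4%. With an upstream neighbour on the opposite strand, 14 of 78 collagen genes (17.9%) had a pooled promoter summit, against 38.9% of all genes so placed. With one on the same strand it was 25 of 78 (32.1%), against 29.3%. The opposite-strand class holds overlapping genes as well as divergent promoters. Set against all genes of the same class, the collagen share in the pooled list was lower in the opposite-strand class and slightly higher in the other. For IDR-thresholded summits the counts were 3 of 78 (3.85%, against 12.1%) in the opposite-strand class and 2 of 78 (2.56%, against 5.27%) in the other.

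Collagen genes were also divided by whether another collagen gene was near. Another col- start was within 10 kb of 50 genes, of which 13 (26.0%) had a pooled promoter summit and 0 an IDR-thresholded one. Among the 106 others it was 26 (24.5%) and 5, so the pooled shares were close. Over all genes, not divided in this way, the shares were 33.7% and 8.42%. With 5 genes in all, nothing is read from how the IDR-thresholded promoter summits fell between the classes. By chromosome, pooled promoter summits were found for 4 of 21 collagen genes on I (19%, against 38.2% of all genes there), 6 of 24 on II (25%, against 30.8%) and 4 of 12 on III (33.3%, against 42.5%). On IV they were found for 9 of 41 (22.0%, against 32.6%), on V for 7 of 31 (22.6%, against 27.6%) and on X for 9 of 27 (33.3%, against 36.8%). The collagen share was below that of all genes on each chromosome, with 12 to 41 collagen genes behind each value.

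Repeated sequence in the windows was measured too. The promoter windows of 17 collagen genes (10.9%) had under 90% of their 32-base words found once in the genome, against 14.2% of all genes, with col-3 and col-117 lowest at 46.8%. Over windows at or above 90%, 5 of 139 collagen genes (3.60%) had an IDR-thresholded summit, against 9.16%, and 36 (25.9%) a pooled one, against 36.8%. In gene bodies, 44 collagen genes (28.2%) were under 90%, against 15.4% of all. Base composition was alike, with a median of 35.7% G and C in collagen promoter windows, against 35.0% over all.

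A panel of 7 motifs was searched on both strands of the 1200 bp promoter windows. The AP-1 letters TGACTCA were found in 9 collagen promoters (5.77%), against 11.7% of all promoters: col-2, col-55, col-97, col-101, col-107, col-135, col-137, col-155 and col-166. The related cyclic AMP response element TGACGTCA was in 10 (6.41%), against 5.89% of all. The GATA letters TGATAA were in 120 (76.9%), against 72.0%, CTGCGTCTC in 10 (6.41%), against 6.81%, and GAGAGAGA in 19 (12.2%), against 8.70%. The E-box CACGTG was in 20 (12.8%), against 18.4%, and the forkhead letters TGTTTAC in 26 (16.7%), against 15.1%. No motif of the panel contains another, and a match is only a description of letters.

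In the 201 bp around the summits the counts were small. None of the 5 IDR-thresholded collagen promoter summits held a motif of the panel, while over all 1278 such promoter summits 4.38% held TGACTCA and 13.5% CTGCGTCTC. Of the 40 pooled collagen promoter summits, 0 held TGACTCA, against 3.83% of the 6349 of all genes. TGATAA was found in 11 (27.5%), against 24.6%, GAGAGAGA in 3 (7.50%), against 5.59%, and CTGCGTCTC in 1, that of col-103 (2.50%), against 6.13%. A missing match says only that those letters are not in that window.

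The other-named cuticle collagens, among them the genes of Blister, Dumpy and Roller mutants, were set beside the col- genes. Of 20, 1 (5%) had an IDR-thresholded promoter summit and 6 (30%) a pooled one, against 8.42% and 33.7% of all genes. The 1 was bli-6, at IV:6376556-6376899, with signals of 39.6 pooled, 28.4 in replicate 1 and 8.83 in replicate 2, and a summit that was nearer to the start of hrpf-2 (205 bp) than to its own (337 bp). Pooled signals of the others with a promoter summit were 20.9 at dpy-13, 17.6 at dpy-4, 12.4 at dpy-5, 11.1 at sqt-2 and 9.79 at rol-6, all below the weakest IDR-thresholded signal of 28.4.

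Genes that act on cuticle collagens or on the molt were counted from lists written for this purpose. The shares over all genes, 33.7% with a pooled and 8.42% with an IDR-thresholded promoter summit, are the background for these counts. Of 13 genes for collagen folding, processing and cross-linking, 6 (46.2%) had a pooled promoter summit and 1 (7.69%) an IDR-thresholded one: pdi-2, which encodes the protein disulfide isomerase subunit of prolyl 4-hydroxylase. Its peak at X:4523932-4524275 had signals of 38.7 pooled, 25.2 in replicate 1 and 15.8 in replicate 2, 51 bp upstream of the start. Of 12 genes for cuticle proteins that are not collagens, 7 (58.3%) had a pooled and 0 an IDR-thresholded promoter summit, and of 4 collagen genes of other kinds 1, cle-1, had a pooled one, with a signal of 8.32.

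Among 21 regulators of molting and of the epidermis, 8 (38.1%, against 33.7% of all genes) had a pooled promoter summit and 1 (4.76%, against 8.42%) an IDR-thresholded one. This was myrf-1, a membrane-bound transcription factor gene needed for larval molting, whose peak at II:10502686-10503029 had signals of 118 pooled, 67.2 in replicate 1 and 50.2 in replicate 2. It was above each of the collagen promoter peaks in the pooled data and in both replicates. Of 7 genes of the DBL-1 pathway, a bone morphogenetic protein pathway that sets body size and acts on cuticle collagen genes, 5 (71.4%, against 33.7% of all genes) had a pooled and 2 (28.6%, against 8.42%) an IDR-thresholded promoter summit. At the Smad gene sma-2 (III:8749439-8749782) the signals were 37.6 pooled, 32 in replicate 1 and 15.3 in replicate 2. At sma-9, a zinc finger gene that works with the Smads (X:10768360-10768703), they were 29.4 pooled, 14.6 in replicate 1 and 13.4 in replicate 2. With 4 to 21 genes a list, these shares are given as counts only, and nothing is read from their differences.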

How the data were processed

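JUN-1 ChIP-seq peaks on ce11 were analysed for 2 biological replicates of whole L1 larvae. The authors deposited peak lists per replicate, for both replicates pooled, and after IDR, derived with 1 control alignment shared by both replicates, per the deposited notes on file provenance. The deposited lists give a signal value per peak and a −log10 q-value per peak. For the aligner, the caller, the IDR cutoff and the signal scaling, nothing is stated in the labels or files. Depth is unknown.

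Genes came from Ensembl release 115 (WBcel235) and sequence from RefSeq WBcel235, whose chromosome lengths held all peaks. A summit counted for every gene whose window held it (from 1000 bp before the start to 200 bp after it). Shares were set beside all 19973 protein-coding genes, with no test, since genes of 1 pair of libraries are not replicates. The assignment was tested on simulated data, where all 120 of 200 placed peaks that lay inside windows were recovered. Wilson intervals (95%) cover counting error only. Python 3.11.15, pandas 2.3.3, numpy 2.4.6 and scipy 1.17.1 were used.

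Named collagen genes were those with an IDR-thresholded summit in the promoter, within 1000 bp beyond the window or in the gene body, and the 10 strongest others in the pooled list with a promoter summit in both replicate lists. Added to these were col-2, col-10, col-12, col-19 and col-99, and members of the other lists with an IDR-thresholded promoter summit. Named outside this rule, after their values were seen, were genes with summits beyond the gene end, those with a pooled summit in small lists, those holding TGACTCA, and col-54 and col-117. The members and lists were chosen with earlier results of these data known. Lists on ce10 were not used here. Alternatives covered window size, overlap, transcript starts, nearest starts, stronger peaks, each replicate alone and sequence repeats.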

Additional observations from a re-analysis of the deposited data

How the results depend on the processing

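Of 62 alternative values, 39 stayed within 1.5 times the reported count, or within 0.896 for the median signal, and 23 did not. The 0.896 is 1 SD of the 2 replicate medians, whose lists have their own scales. It is a yardstick and does not measure the spread between replicates. The medians from single replicates are among the 23 and differ from the pooled one in scale as well. A window of 500 bp upstream to 100 bp downstream gave promoter summits for 2 collagen genes in the IDR-thresholded list (6.61% of all genes), 23 in the pooled list (24.7%), 31 in replicate 1 (29.4%) and 34 in replicate 2 (28.3%). One of 2000 bp upstream to 500 bp downstream gave 9 in the IDR-thresholded list (11.2%), 83 in replicate 1 (56.0%) and a median pooled signal of 11.7 (14.8 over all genes). Keeping the upper 50% of each list by signal gave 1 (4.73%), 18 (23.1%), 29 (27.4%) and 32 (27.1%), and a median of 17.8 (21.6). Summits nearest to the collagen start numbered 0 (5.2%), 5 (7.27%) and 0 (3.37%) under these 3 settings. In that upper part, 0 collagen genes had a gene-body summit (1.08%), 3 an IDR-thresholded (0.696%) and 17 a pooled summit (6.2%) beyond the end. Without peaks within 100 bp of a tRNA, small nucleolar or small nuclear RNA gene, an alternative added after seeing the data, 0 gene-body summits (1.84%), 4 promoter summits (8.14%) and 5 summits beyond the end (1.12%) were left in the IDR-thresholded list. With 1 replicate left out, the 2305 strongest peaks of the other gave 4 to 5 promoter summits (7.98% to 8.56% of all genes), 1 to 3 nearest the collagen start (5.93% to 6.26%), 2 to 3 in gene bodies (2.15% to 2.33%) and 4 to 8 beyond the end (1.24% to 1.40%), the 4 without replicate 1. The replicate lists in place of the pooled one gave 52 to 57 promoter summits (40.7% to 41.1%), 28 to 37 summits beyond the end (13.1% to 13.8%), and a median signal of 4.95 to 6.21 on their own scales. The collagen promoter share in the IDR-thresholded list was below that of all genes under each of these settings. No paired analysis was possible because the study has 1 group. Depth, which limits how weak a site can be seen, is unknown.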
